A study of Homo sapiens with 2 samples.

Results

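The cyclin B-CDK1 mitotic entry switch was followed here through 10 genes, namely CDK1, its cyclin partners CCNB1, CCNB2 and CCNA2, the activating phosphatase genes CDC25B and CDC25C, the activating kinase gene PLK1, the inhibitory kinase genes WEE1 and PKMYT1, and FOXM1, which encodes a transcription factor of the programme. The members were matched to probes by gene name, and the set was put together with earlier results of these data known. All 10 were on the chip with 11 usable probes, 2 of them for CCNB1, out of 24456 usable gene probes for 19372 named genes. The CDK1 probe carried the former symbol CDC2. Another probe was named PAQR4 in the scanner files but PKMYT1 in the platform annotation and was kept apart.

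RNA came from MDA-MB-231, a long-established cell line of human triple-negative breast cancer, grown in 3D culture on Matrigel, a laminin-rich basement membrane matrix. The untreated culture (0 Gy) received no radiation, and the irradiated culture (2 Gy x 4) received 2 Gy on each of 4 days. How long after the last dose RNA was isolated was not found in the sources used here. Each condition was represented by 1 array, so there is no replicate spread, no test and no standard error, and every ratio below compares these 2 cultures only, as 2 Gy x 4 over 0 Gy. Since each array reads the RNA of a whole culture, more cells passing through G2 or mitosis and more transcript in each cell cannot be told apart.

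At the end of G2, CDK1 is bound by cyclin B but is held inactive by phosphates that WEE1 and PKMYT1 place on its active site. CDC25 phosphatases remove them, and PLK1 and active CDK1 itself stimulate CDC25 and lead to the loss of WEE1, so that entry into mitosis is abrupt. After DNA damage, the checkpoint kinases CHEK1 and CHEK2 block CDC25 and keep cells in G2. Most transcripts of the switch are made late in the cell cycle, from promoters bound by NF-Y, by the MuvB complex with B-MYB, and by FOXM1.

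In the main values the kinase and its B-type cyclins were higher on the irradiated array, while the inhibitory kinases were not. With the local background of each spot subtracted, CDK1 and CCNB2 instead stood at 0.949 and 0.904 and WEE1 at 1.11, and 6 of the 10 genes were above 1. The main values were background-corrected with an offset of 50 and quantile-normalized, and the offset draws the ratios of dim probes towards 1. In these values 8 of the 10 genes had a ratio above 1, against 55.4% of the 17789 genes detected on both arrays. CDK1, CCNB1 and CCNB2 were at least 1.5-fold higher, 3 of 10 genes, against 0.298% of all detected genes. None of the 10 was at least 1.5-fold lower, against 1.01%. The median ratio of the 10 genes was 1.26, and that of all detected genes was 1.01.

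CDK1, the catalytic subunit of the switch, had a median spot intensity of 235 brightness units at 0 Gy and 457 at 2 Gy x 4. Its normalized ratio was 1.97, rank 4 from the top among 17789 genes, and 0.949 after local background subtraction. In the authors' value table, which has a median of 25 on each array and whose numbers follow the spot intensity less about the level of a blank spot, it stood at 107 and 246, a ratio of 2.31. CCNB1 encodes cyclin B1, the main CDK1 partner in mitosis, and was read by a pair of probes at different places on the chip. The probe in chip row 38 went from 364 to 669 units, a ratio of 1.90, and the probe in row 254 from 226 to 373, a ratio of 1.68. Both CCNB1 probes thus lay on the same side of the 1.5-fold line, and their mean of 1.79 ranked 10. CCNB2, which encodes the Golgi-associated cyclin B2, had spot intensities of 175 and 307 and a ratio of 1.75, rank 14, and 0.904 after local background subtraction. CCNA2 encodes cyclin A2, which serves CDK2 in S phase and CDK1 in G2. Its intensities were 139 and 184 with a ratio of 1.35, short of 1.5-fold, and 1.56 in the value table. The spots of these 4 genes were bright, and the dimmest of them, CCNA2, had 11.5 times the 95th percentile of blank spots on the irradiated array (16.0 units).

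**Figure D1:**
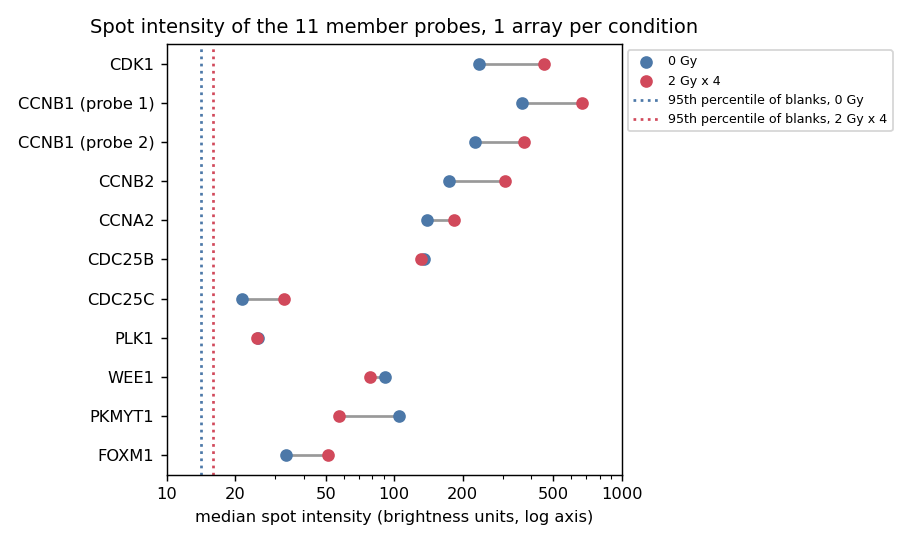
Median spot intensity (brightness units, log axis) of the 11 member probes on the 0 Gy array (blue) and the 2 Gy x 4 array (red), with a grey line joining the 1 value per condition and dotted lines at the 95th percentile of blank spots (14.2 and 16.0 units). CDK1, both CCNB1 probes and CCNB2 lay farther right on the irradiated array, CDC25C and PLK1 lay close to the blank spots, and PKMYT1 was lower, at 105 and 56.9 units.

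The genes nearest to CDK1 in normalized log2 signal over the 2 arrays were CDCA8, which encodes the passenger complex protein borealin, at a Euclidean distance of 0.13, PNP at 0.26 and CCNB1 itself at 0.28. CDCA8 had a ratio of 2.08. The nearest to CCNB1 were R3HDM2 at 0.16, ZC3H4 at 0.16 and PNP at 0.17, with ratios of 1.54, 1.56 and 1.59. After the local background subtraction described further on, CDCA8 stayed at 2.08 and R3HDM2 at 1.64, while ZC3H4 stood at 0.775 and PNP at 0.551. With 2 arrays this likeness is a matter of 2 values per gene.

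The promoters of the members are shown because they carry the short elements through which late cell cycle genes are read. They are the 250 bases before the RefSeq start site on GRCh38.p14, given 5′ to 3′ on the strand of the gene, with capitals marking CCAAT (the NF-Y box) or its reverse complement ATTGG, and TTTGAA (the core of the CHR, the element bound by MuvB) or its reverse complement TTCAAA.
CDK1 (chr10:60778228-60778477, plus strand): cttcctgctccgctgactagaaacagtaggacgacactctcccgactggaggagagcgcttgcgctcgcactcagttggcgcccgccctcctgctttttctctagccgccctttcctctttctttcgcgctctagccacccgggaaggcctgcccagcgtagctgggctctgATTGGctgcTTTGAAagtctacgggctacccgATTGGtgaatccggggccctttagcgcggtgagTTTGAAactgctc
CCNB1 (chr5:69166900-69167149, plus strand): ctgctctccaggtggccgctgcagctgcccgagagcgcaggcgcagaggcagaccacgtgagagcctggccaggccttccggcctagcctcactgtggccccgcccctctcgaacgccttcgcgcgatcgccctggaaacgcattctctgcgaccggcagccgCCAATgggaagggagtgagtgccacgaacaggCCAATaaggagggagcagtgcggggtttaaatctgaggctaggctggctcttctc
CCNB2 (chr15:59104896-59105145, plus strand): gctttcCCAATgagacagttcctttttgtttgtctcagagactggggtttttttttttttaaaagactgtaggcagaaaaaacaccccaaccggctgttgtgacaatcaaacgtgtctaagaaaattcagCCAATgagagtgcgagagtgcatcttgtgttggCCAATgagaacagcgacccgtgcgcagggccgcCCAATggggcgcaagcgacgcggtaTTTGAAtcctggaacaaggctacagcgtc
CCNA2 (chr4:121823884-121824133, minus strand): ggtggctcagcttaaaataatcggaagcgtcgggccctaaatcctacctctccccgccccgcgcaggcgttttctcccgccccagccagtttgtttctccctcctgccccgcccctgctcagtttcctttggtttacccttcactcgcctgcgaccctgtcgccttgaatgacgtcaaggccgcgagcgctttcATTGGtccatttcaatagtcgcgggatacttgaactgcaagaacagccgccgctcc
CDC25C (chr5:138331805-138332054, minus strand): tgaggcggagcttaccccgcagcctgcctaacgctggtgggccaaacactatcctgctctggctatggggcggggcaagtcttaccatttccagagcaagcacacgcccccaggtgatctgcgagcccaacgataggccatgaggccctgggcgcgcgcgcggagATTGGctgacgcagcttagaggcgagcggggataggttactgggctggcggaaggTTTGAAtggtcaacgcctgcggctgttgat
PLK1 (chr16:23678639-23678888, plus strand): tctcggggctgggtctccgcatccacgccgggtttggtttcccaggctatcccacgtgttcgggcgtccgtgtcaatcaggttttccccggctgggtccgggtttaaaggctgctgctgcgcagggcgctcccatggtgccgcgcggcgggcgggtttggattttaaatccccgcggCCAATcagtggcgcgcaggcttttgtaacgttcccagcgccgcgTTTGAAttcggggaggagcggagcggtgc

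The promoter table held 7 of the 10 members, with more than 1 start site for CDK1, CDC25B and CDC25C, and for CDK1 and CDC25C the window printed is the one whose elements lie nearest its start with both kinds present. All 7 had a CCAAT box in at least 1 window, against 10102 of the 27305 genes of the table counted the same way, and 5 had a CCAAT box together with TTTGAA or the variant TTCGAA in the same window, against 6.24% of those genes. Genes with several start sites have more windows in which to hold a match. Counted by promoter, among all 35116 promoters of the table, 32.0% held CCAAT on either strand, 13.3% TTTGAA on either strand, 1.19% TTCGAA, which is its own reverse complement, and 5.05% a CCAAT box with 1 of the others. CCNB2 had 4 CCAAT boxes, of which those beginning 120, 87 and 54 bases before the start are evenly spaced, and a TTTGAA beginning 29 bases before it. PLK1 had CCAAT and TTTGAA beginning 73 and 29 bases before its start, and CDC25C 85 and 30 bases. In CDC25B, TTCGAA began 38 bases before 1 of 4 start sites. CCNB1 had 2 CCAAT boxes, CCNA2 had 1, and neither held TTTGAA or TTCGAA in this window. No other form of the CHR was searched for, so a missing match does not show that the element is absent. A match is a description of letters and not a bound site, and the members with both elements differed in ratio, from 1.97 for CDK1 to 1.01 for PLK1.

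**Figure D2:**
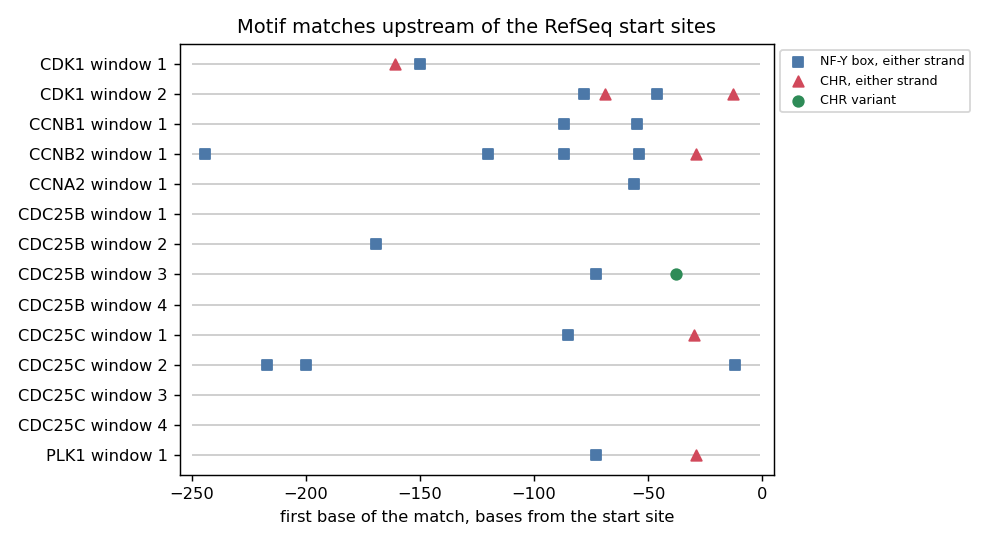
Positions of motif matches in the 250 bases before each RefSeq start site of the 7 members with a promoter in the table (x axis, bases from the start to the first base of the match, 1 line per start site). Blue squares are NF-Y boxes, red triangles the CHR core and the green circle its variant. In CCNB2, PLK1 and CDC25C window 1 a CHR core lies 29 or 30 bases before the start, with an NF-Y box farther upstream.

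The activators other than the cyclins were mixed. CDC25C, the phosphatase gene named for mitotic entry, was dim, with spot intensities of 21.5 and 32.8 units, 1.52 and 2.05 times the 95th percentile of blank spots. Its normalized ratio was 1.21, and 1.04 after local background subtraction. The ratio was 2.21 with offset 0 and 2.41 in the value table, where it stood at 4.41 and 10.6, the highest ratio of the 10 genes. Because of its low signal the size of this difference depends on how the background is taken off. CDC25B, which encodes the phosphatase that starts CDK1 activation at the centrosome, read 135 and 130.5 units, with a ratio of 1.06. PLK1, the kinase that stimulates CDC25C, was also dim. It had 25.1 units at 0 Gy and 24.9 at 2 Gy x 4, a ratio of 1.01 in the main values and in the value table.

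Neither inhibitory kinase was higher in the main values. WEE1, which phosphorylates CDK1 in the nucleus, read 91.0 and 78.1 units, with a ratio of 0.97, or 0.95 in the value table and 1.11 after local background subtraction. PKMYT1, the membrane-bound inhibitory kinase, was the lowest member, with intensities of 105 and 56.9. Its ratio was 0.715, rank 17461 of 17789, and 0.844 after local background subtraction. In the value table it stood at 0.541 and passed 1.5-fold downwards. It also did so with offset 0 (0.555) and without background correction (0.602). At least 1.5-fold lower in these settings were 6.49%, 4.62% and 2.44% of all detected genes. The probe of 2 gene names, PAQR4 or PKMYT1, read 55.9 and 34.3 units, with ratios of 0.815 and 0.548. It lay in chip column 98 and the PKMYT1 probe in column 97, both among the last columns of the chip.

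FOXM1, which drives late cell cycle genes and is itself made late in the cycle, read 33.2 and 51.0 units, with a ratio of 1.31. In the value table it went from 10.1 to 20.8, a ratio of 2.07, and after local background subtraction its ratio was 1.09. In the authors' values 6 of the 10 genes were at least 1.5-fold higher, against 3.96% of all detected genes, and the median of the 10 was 1.79 against 1.03. The added genes were CCNA2, CDC25C and FOXM1. With offset 0 the count was 5, against 2.23%, and without background correction 5, against 0.798%. Median and 75th percentile scaling left it at 3, against 0.264% and 0.281%. None of the 10 genes reached 2-fold in the main values, against 0.0169%.

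**Figure D3:**
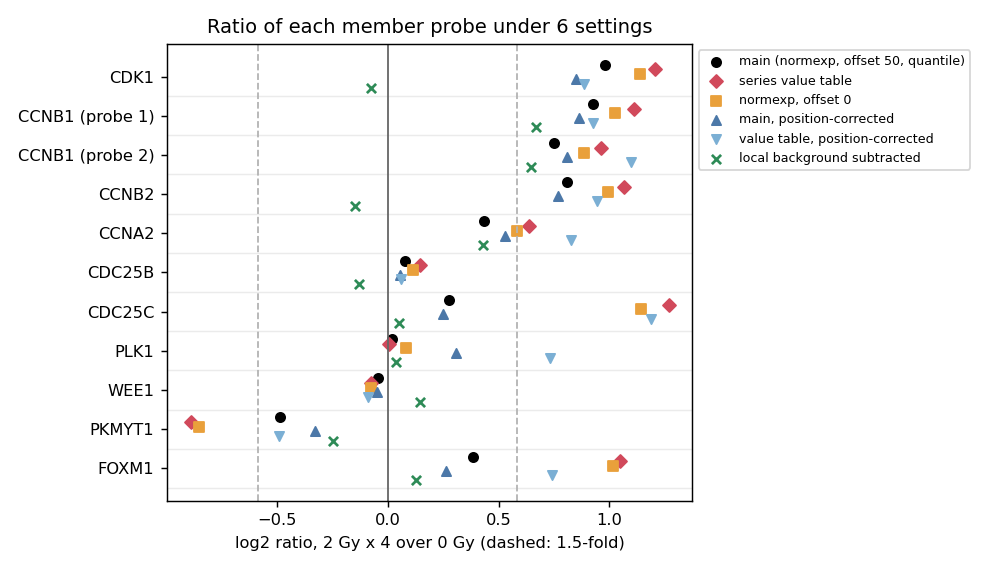
Log2 ratio (2 Gy x 4 over 0 Gy) of each of the 11 member probes in 6 settings, with dashed lines at 1.5-fold either way. CDC25C and FOXM1 moved from 1.21 and 1.31 in the main values to 2.41 and 2.07 in the value table, PLK1 moved only with the position correction, and local background subtraction (green crosses) placed CDK1 and CCNB2 below 0.

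Ratios were higher in the first columns of the chip and lower in the last, where PLK1 and PKMYT1 lay. The median ratio of detected probes was 1.02 in columns 1 to 78 and 0.936 in columns 79 to 104 (1.08 and 0.841 in the value table). The PLK1 probe was in column 103, where the probes around it had a median log2 difference of -0.29 in the main values and -0.73 in the value table. With this local trend taken off, PLK1 had ratios of 1.24 and 1.66, and ranked 374 and 286 among 17789 genes. PKMYT1 stayed below 1 after the same step, at 0.797 and 0.713, but no longer passed 1.5-fold in the value table, and the probe of 2 gene names stood at 0.978 and 0.841. CCNA2 and the second CCNB1 probe, both in column 78, went to 1.44 and 1.75. CDK1, in column 25, stood at 1.80. The correction left 3 genes at least 1.5-fold higher in the main values (background 0.214%) and 7 in the value table (background 2.98%), the seventh being PLK1.

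The subtraction of the local background measured around each spot also set CDC25B below 1, at 0.915, beside CDK1 and CCNB2, while CCNB1 stayed at 1.58 and CCNA2 at 1.35. At the CDK1 spot the local background was 219.8 units at 0 Gy and 458 at 2 Gy x 4, 93.6% and 100.2% of the spot itself. At CCNB2 it was 98.3% and 108%. The 4 dim spots that touched CDK1 on the chip, at under 2 times the 95th percentile of blanks, had local backgrounds of 0.422 to 4.70 and 6.39 to 10.3 units on the 2 arrays. The share that the local background took of the spot varied down the chip. For probes with a spot of 100 to 400 units on the untreated array it had a median of 77.0% in rows 1 to 66, which hold CDK1, CCNB2 and the first CCNB1 probe, and 29.1% in rows 199 to 264, which hold the second CCNB1 probe and CCNA2. The CCNB1 probe in row 38 had 95.5% and 86.9% and a ratio of 1.59 after subtraction, and the probe in row 254 had 30.9% and 31.1% and a ratio of 1.57. Of 54 probes of this brightness in rows 1 to 66 that were at least 1.5-fold higher in the value table, 25 fell below 1 after subtraction, against 11 of 53 in rows 67 to 132, 0 of 21 in rows 133 to 198 and 0 of 18 in rows 199 to 264. In this setting 1 of the 10 genes was at least 1.5-fold higher, against 2.6% of all detected genes.

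**Figure D4:**
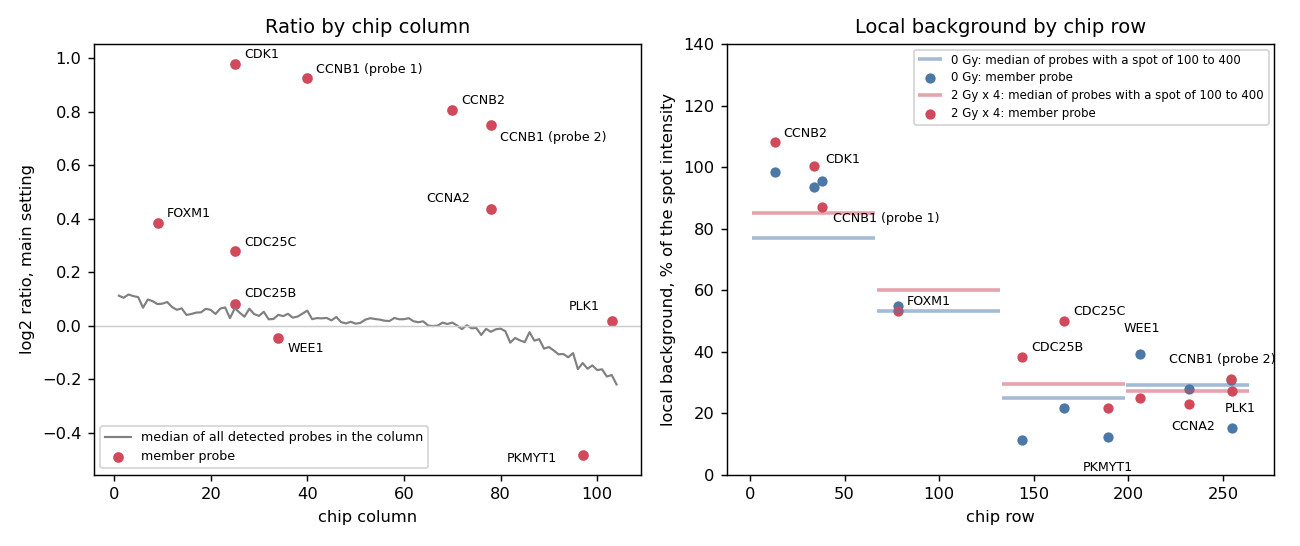
Left, log2 ratio in the main values against chip column for the 11 member probes (red) and the median of all detected probes in each column (grey line), which falls below 0 in the last columns where PLK1 and PKMYT1 lie. Right, local background as a percentage of the spot intensity against chip row for the member probes on each array (blue, 0 Gy; red, 2 Gy x 4), with bars at the median of probes with a spot of 100 to 400 units in 4 bands of rows, 77.0% and 85.1% in the first band and 29.1% and 27.1% in the last.

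Genes around the switch were compared through lists that leave out the 10 members. In the main values 55.4% of all detected genes had a ratio above 1 and 0.298% were at least 1.5-fold higher. Of 5 genes of PLK1 activation, 5 had a ratio above 1 and 2 were at least 1.5-fold higher, with a median of 1.43. These were AURKA, which phosphorylates PLK1 together with its cofactor BORA, at 1.68, and AURKB at 1.54, while BUB1 stood at 1.43 and BORA at 1.14. With the local trend taken off AURKB stood at 1.45, which left 1 of the 5 past 1.5-fold, against 0.214% of all detected genes. With local background subtraction none passed it, against 2.6%, with AURKA at 1.21, AURKB at 1.01 and a median of 1.12. Of 25 other G2 and mitosis genes, 23 were above 1 and 7 at least 1.5-fold higher, with a median of 1.24, led by CDCA8 at 2.08, TOP2A at 1.97, KIF20A at 1.85 and NUF2 at 1.83. Of these 25 genes, 17 were at least 1.5-fold higher in the value table, against 3.96% of all detected genes. After local background subtraction the count was 3, against 2.6%, and the median 1.12, with CDCA8 at 2.08, KIF20A at 1.51, TOP2A at 1.31 and NUF2 at 1.16. The genes of the small CDK1-binding proteins, CKS1B and CKS2, stood at 1.29 and 1.33 in the main values. After local background subtraction they lay on opposite sides of 1, at 3.096 and 0.6299, both past 1.5-fold. CDK2, which cyclin A2 also binds and which lay in column 102, stood at 0.695 in the main values and at 0.789 with the local trend taken off. Of the 10 genes of this list, none reached 1.5-fold either way in the main values. Of all detected genes, 0.298% were that much higher and 1.01% that much lower.

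In the main values the lists that act on CDK1 substrates or hold the switch back lay nearer to all genes than the switch genes did. After local background subtraction the median was 1.03 for the switch genes and 1.01 for all detected genes. In that setting the Greatwall list stood at 1.04, the checkpoint brake at 0.990, the MuvB list at 1.04 and cyclin destruction at 0.978. Of 10 genes listed for the Greatwall kinase and the phosphatases PP2A-B55 and PP1, 4 were above 1 in the main values, with a median of 0.965. MASTL, which encodes Greatwall, had a ratio of 1.19 and PPP1CB, a catalytic subunit of PP1, 0.679. Of 16 genes of the checkpoint brake, 8 were above 1 and the median was 0.992. SFN encodes the 14-3-3 sigma protein that can hold CDK1-cyclin B in the cytoplasm. In the main values it was the only brake gene at least 1.5-fold lower, at 0.576, against 1.01% of all detected genes. It stayed at 0.589 with the local trend taken off. GADD45A, a damage-induced gene, stood at 1.30, or 1.16 with that trend taken off. After local background subtraction SFN stood at 0.694, and YWHAZ, at 0.649, was the only brake gene at least 1.5-fold lower. In that setting 3 of the 16 were at least 1.5-fold higher, against 2.6% of all detected genes. These were CDKN1A at 5.87, GADD45A at 1.70 and YWHAB at 1.51. The high CDKN1A ratio was limited to that setting. CDKN1A stood at 0.8997 in the main values and at 0.9366 in the value table. With the local trend taken off, these became 0.9375 and 1.046. In the main values the 14 genes of MuvB, B-MYB, DREAM and NF-Y had a median of 1.05. None of them reached 1.5-fold, against 0.298% of all detected genes higher and 1.01% lower, with TFDP1 at 1.27 and NFYB at 0.77. Of 17 genes of cyclin destruction, 11 were above 1 with a median of 1.03. CDC20, the mitotic activator of the anaphase-promoting complex, stood apart from the others at 2.42, followed by PTTG1, which encodes securin, at 1.38 and FBXO5, an inhibitor of that complex, at 1.36. CDC23, a core subunit, stood at 0.608 in column 100 and at 0.747 with the local trend taken off.

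The genes of G1 and S phase were set beside the switch for contrast. Of 25 such genes, 18 were above 1 and none reached 1.5-fold in the main values or in the value table, with medians of 1.10 and 1.21. Of all detected genes, 0.298% and 3.96% were at least 1.5-fold higher, and 1.01% and 6.49% lower. None in 25 genes is near these shares. After local background subtraction their median was 1.04, and that of the 10 switch genes was 1.03. In the main values CCND1, which encodes cyclin D1, stood at 1.38 and PCNA at 1.29, or 1.14 with the local trend taken off. Among 7 CDK1 substrates of mitotic entry the median was 0.981. The condensin subunit NCAPH had a ratio of 1.42, which was 2.35 in the value table, and the lamin gene LMNA 0.757. After local background subtraction NCAPH stood at 1.18 and LMNA at 0.991. The lists differ in size and their genes are not independent, so these medians describe the 2 arrays.

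**Figure D5:**
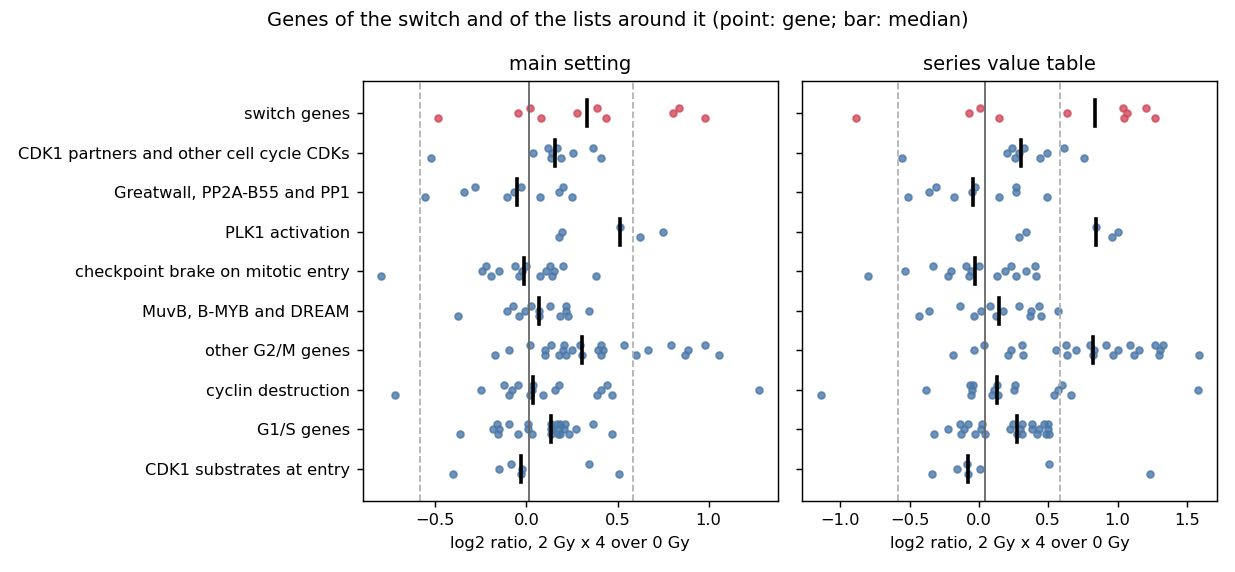
Log2 ratio (2 Gy x 4 over 0 Gy) of each detected gene in the switch (red) and in the 9 lists around it (blue), in the main values (left) and in the series value table (right). Black bars are list medians, the grey line is the median of all detected genes and dashed lines mark 1.5-fold. The switch genes, PLK1 activation and the other G2/M genes had medians of 1.26, 1.43 and 1.24 in the main values, and the G1/S genes 1.10.

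The identity of the culture was checked on marker genes. All 7 genes high in MDA-MB-231, such as VIM and AXL, had a probe above the median gene probe on both arrays, and ESR1 and PGR were at blank level on the irradiated array. ERBB2, CDH1, EPCAM, GATA3 and FOXA1, named as low in this line, were above the median gene probe on both arrays. Of 10 genes of blood, endothelial and fibroblast cells, 2 were above it, ACTA2 and DCN, and the summed spot intensity of the list was 1842 and 1605 units. The part of other cells in the results was not tested.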

How the data were processed

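Cy5-labelled amplified RNA of 1 untreated and 1 irradiated culture was hybridised to a 1-colour 3D-Gene Human oligo chip (Toray). The deposited scanner files hold the median spot intensity and a local background intensity, neither subtracted nor scaled. The value table deposited by the authors holds processed intensities with a median of 25 on each array, and its steps are not given in the sources used here. From the median spot intensity, values were corrected by normexp over all spots with offset 50 and quantile-normalized over 24456 gene probes, after leaving out control, blank and NG-marked spots, with limma 3.58.1 in R 4.3.3. Other steps used Python 3.11.15 with pandas 2.3.3. Probes above the 95th percentile of blank spots on both arrays were kept and averaged per gene on the log2 scale. The platform annotation, updated through Entrez identifiers to RefSeq symbols, named 21707 probes and the scanner name 965 more, and 1788 stayed unnamed. No genome position is given for probes. A call was a size rule of 1.5-fold, since 1 array per condition allows no test, and precision is limited by having 2 arrays in all.

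For the position correction, the median log2 difference of detected probes within 11 rows and 8 columns either way was subtracted from each probe. Alternatives were median and 75th percentile scaling, offset 0, no background correction, local background subtraction, the value table, the position correction of both, the brightest probe, no filter and a 2-fold rule. Named genes were all members, up to 4 genes of each list with the largest differences, and the 3 genes nearest to CDK1 and to CCNB1. The members and lists were chosen with earlier results of these data known. Only the main values and the ratio of the value table were checked against known fold changes in simulated data made from the untreated array. The simulation held no trend over the chip and no simulated local background, so neither the position correction nor the local background subtraction was checked. Protein sequences were not used here.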

Additional observations from a re-analysis of the deposited data

How the results depend on the processing

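The main values gave 3 of the 10 genes at least 1.5-fold higher and a median log2 difference of 0.33. The count was 5 with offset 0 and 5 without background correction, 6 in the value table, 7 in the position-corrected value table, 1 with local background subtraction and 0 at 2-fold. The median was 0.77 with offset 0, 0.61 without background correction, 0.84 in the value table, 0.78 after its position correction and 0.045 with local background subtraction. Local background subtraction turned CDK1 to 0.949 and CCNB2 to 0.904, in the part of the chip where the local background came close to the spot itself. CDC25B and WEE1, which were within 1.5-fold in both settings, also crossed 1, to 0.915 and 1.11. Of 88 values of the 11 member probes under the alternatives, 72 kept their side of 1.5-fold, 14 passed it only in the alternative, and those of CDK1 and CCNB2 turned from past 1.5-fold to below 1. In all, 4 values crossed 1. Median scaling, 75th percentile scaling, the brightest probe, no filter, position-corrected main values and, chosen after seeing the data, counting the probe of 2 gene names as PKMYT1 left the count at 3. Of 72 medians of the lists around the switch, 57 stayed within 0.1 on the log2 scale of the main value. Of the 15 that moved, 10 belonged to the PLK1 activation and other G2/M lists, which ranged from 0.16 to 0.84 and from 0.16 to 0.82 over the 8 alternatives. CDC25C, PLK1 and FOXM1 were within 3.19 times the 95th percentile of blank spots on both arrays, and their ratios rest on a low signal. No paired analysis was possible because each condition had 1 array, and no replicate could be left out.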

Other observations

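Of 13762 detected genes with a promoter in the RefSeq table, 816 held a CCAAT box together with TTTGAA or TTCGAA in the same window. Of these 816, 8 (0.98%) were at least 1.5-fold higher in the main values, against 41 (0.298%) of all 13762, and 61 (7.48%) against 550 (4%) in the value table. The median ratio was 1.01 in both sets. The 8 genes, listed after their values were seen, were the members CDK1 and CCNB2, 4 genes of the lists around the switch (CDC20, CDCA8, PRC1 and TOP2A), and KPNA2 and PRR11. The larger set contains the smaller, the difference was not tested, and these counts describe the 2 arrays.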
